A study of Mus musculus with 2 samples.

Results

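Cytochrome P450 genes were examined in organoids grown from young and from aged mouse stomachs. Members were the probe sets annotated with a single gene symbol made of Cyp, a family number, a subfamily letter and a gene number, such as *Cyp2f2*. *Cyp51*, which has no subfamily letter, and pseudogenes were left out. The rule gave 93 genes with 1 probe set each, of 19505 genes with a single symbol on the array. The young group was organoids from mice 2 to 4 months old, and the aged group organoids from mice over 18 months old. C57BL/6 is the mouse strain that the study's methods name, and they give no transgene and no treatment of the animals for either group. Minced stomach was digested and grown in Matrigel as WRC+ cultures, a medium with Wnt3a, R-Spondin1 and Chir99021, and both groups also shared EGF, Noggin, FGF10, B-27, N-2, N-acetylcysteine, valproic acid, Y-27632 and SB431542. Total RNA of each group was hybridized to 1 Clariom S mouse array, and whether an array holds RNA of 1 animal or of several was not given in the sources used here. With 1 array per group there was no replicate, so no difference was tested, and age cannot be told apart from any other difference between these cultures.

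P450 enzymes are heme proteins that insert an oxygen atom into fats, steroids, vitamins, drugs and toxicants, with electrons passed on from a reductase or, in mitochondria, from ferredoxin. Members of families 1 to 3 are known mostly for foreign compounds, family 4 for fatty acids and their signaling derivatives, and the remaining families for sterols, bile acids, vitamin D, retinoic acid and steroid hormones. The liver is the main site of the family, and the epithelia of lung, gut and kidney each use a set of their own.

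Signals are log2 values, on which a difference of 1 is a 2-fold change, and every difference below is aged minus young. The level below which a signal was treated as background, called the reference, came from 1410 receptor genes of smell (olfactory and vomeronasal), which stomach epithelium is not known to use, and was the signal that 95% of them did not exceed. It was 5.36 for the young and 5.54 for the aged array. A gene was counted as higher or lower when its measured signals were at least 2-fold apart and it was above the reference on at least 1 array. Where a gene was under the reference on 1 array, the reference took the place of that signal for the fold alone, which is given as a lower bound. Such a bound can be under 2-fold for a gene that was counted. Between the arrays, receptor genes differed with an SD of 0.51, and 76 of them (5.39%) were 2-fold or more apart, which is the only measure of noise that these arrays give and holds for dim probe sets. Both cultures carried epithelial RNA, with 8 of 8 epithelial markers above the reference on both arrays, while 0 of 4 leukocyte, 0 of 3 endothelial and 0 of 5 squamous forestomach markers were above it on either. Of the markers of the gastric cell types, the chief cell genes *Pgc* (15.88 young, 5.19 aged) and *Cblif* (13.91 and 3.65) were above the reference on the young array alone. *Tff2*, a neck cell gene, was above it on the aged array alone (4.43 and 12.76), and the pit cell mucin gene *Muc5ac* was under it on both. Of the other pit cell genes, *Gkn2* was at 5.85 and 5.65, *Tff1* at 5.84 and 4.83, and *Gkn1* under the reference on both. *Atp4a* of parietal cells was at 9.52 and 9.40, with *Atp4b* under it on both, and 2 of 5 fibroblast markers were above it on at least 1 array, neither of them 2-fold apart. In RNA of whole cultures, fewer cells of a type and less RNA per cell cannot be told apart.

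Most P450 genes gave no signal above the reference in gastric organoids of either age. Of the 93 genes, 27 (29.0%) were above the reference on at least 1 array, against 59.3% of all genes. Of these, 20 were above it on both arrays, 25 in the young and 22 in the aged array. In the aged array 4 P450 genes were at least 2-fold higher, *Cyp2f2*, *Cyp4b1*, *Cyp2s1* and *Cyp3a13*, and 8 were at least 2-fold lower, *Cyp2c23*, *Cyp2r1*, *Cyp27a1*, *Cyp4f15*, *Cyp2c65*, *Cyp4f17*, *Cyp4f16* and *Cyp4f13*. As shares of all members these are 4.30% higher and 8.60% lower, against 6.72% and 7.02% of all genes. Of genes above the reference on at least 1 array, 11.3% were higher and 11.8% lower, against 4 and 8 of the 27 P450 genes. The median difference over all 93 genes was −0.06, against 0.04 over all genes, and over the 27 it was −0.23, against 0.0021 over all genes above the reference. Counted over all members, the shares were near those of all genes. Among the 27 genes above the reference, the share of the 4 higher ones was near that of all such genes, and *Cyp3a13* was just past the threshold. The 8 lower ones made up a larger share than the 11.8% of all such genes. Of these 8, *Cyp2c23*, *Cyp2r1* and *Cyp4f15* were above the reference on the young array alone. None of these shares was tested, and the counts are too small to describe the family. The counts used signals as measured, so *Cyp2r1* and *Cyp4f15* counted as lower though their lower bounds were 1.44-fold and 1.29-fold. With values under the reference set to it, 4 genes were higher and 6 lower.

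**Figure D1:**
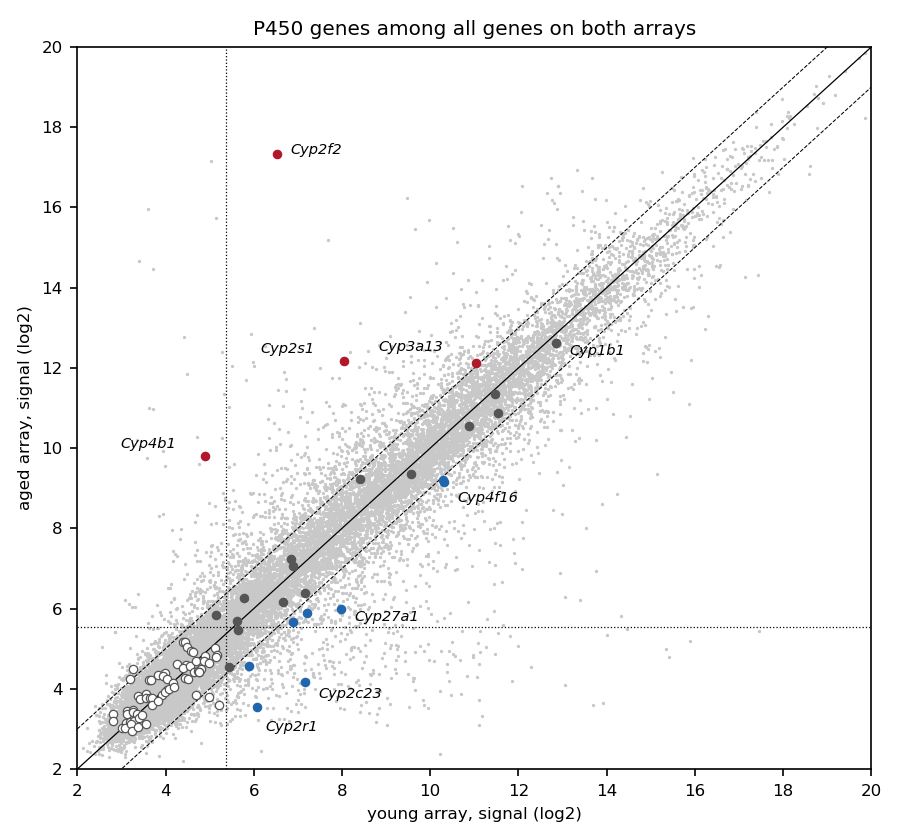
Signals (log2) of all genes (light gray points) and of the 93 P450 genes on the young array (horizontal) and the aged array (vertical), with P450 genes at least 2-fold higher in red, at least 2-fold lower in blue, less than 2-fold apart in dark gray and under the reference on both arrays as open circles. The solid line marks equal signals, the dashed lines 2-fold differences and the dotted lines the references of 5.36 and 5.54, and *Cyp2f2* (6.52 and 17.34) lies farthest from the solid line among the P450 genes.

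The largest difference in the family was that of *Cyp2f2*, which encodes a P450 of mouse lung club cells known for turning naphthalene into a toxic epoxide. Its signal was 6.52 in the young and 17.34 in the aged array, a difference of 10.82 or 1811-fold. Only 3 of the 11557 genes above the reference on at least 1 array had a higher difference. *Cyp2f2* was above the reference in both, by 1.16 in the young and by 11.80 in the aged organoids. The lung club cell markers *Scgb1a1*, *Scgb3a2* and *Sftpb*, that is 3 of 3, were under the reference on both arrays, between 2.87 and 5.13 (young) and between 3.02 and 5.07 (aged).

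*Cyp4b1*, which in mouse and rabbit lung converts fatty acids and activates the plant toxin ipomeanol, was under the reference in the young array, at 4.89, and at 9.80 in the aged one. Its difference of 4.91 was at least 21.7-fold, and 34 genes had a higher one. *Cyp2s1*, a P450 of epithelia outside the liver that dioxin can induce, was at 8.05 (young) and 12.18 (aged). It was well above the reference on both, with a difference of 4.12 or 17.4-fold, exceeded by 52 genes. *Cyp3a13*, the member of the drug-oxidizing family 3 known from the mouse gut as well as the liver, was at 11.04 and 12.11, a difference of 1.08 or 2.11-fold, just past the threshold. The other 8 measured genes of its subfamily, among them the liver gene *Cyp3a11*, were under the reference or, for *Cyp3a44* (5.44 and 4.54), 0.08 above it on the young array.

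Beside these genes, some intestinal markers were higher in the aged array. Of 7 markers, 5 were above the reference on both arrays and 4 of them were at least 2-fold higher, against 11.3% of all genes above the reference. Their mean signal over all 7 was 6.99 (young) and 10.10 (aged). The intestinal homeobox gene *Cdx2* was at 5.83 and 11.70, the cadherin gene *Cdh17* at 7.68 and 15.19, and the galectin gene *Lgals4* at 9.48 and 16.24. The villin gene *Vil1* was at 11.85 and 12.85, just past the threshold, and *Cdx1*, the other intestinal homeobox gene, at 5.61 and 6.16. The enterocyte genes *Fabp1* and *Fabp2* were under the reference on both arrays. Hepatocyte markers were under it too, apart from *Ttr* (4.55 and 6.37), with 6 of 7 under it on both arrays and *Alb* at 5.25 and 5.20. The part of these other cell types' genes in the P450 values was not tested.

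The annotated promoters of the 3 genes with the largest differences are shown because they were built so differently. Each run holds 300 bases, 250 before and 50 from the start site on, 5′ to 3′ in the direction of the gene, taken from RefSeq on GRCm38.p6. They lie at chr7:27119705-27120004 on the plus strand, chr4:115647672-115647971 on the minus strand and chr7:25816476-25816775 on the minus strand. Capitals mark any of 5 motifs searched on both strands, namely TATAA (TATA box core), CCAAT (NF-Y box), GCGTG (dioxin response element core), CCGCCC (GC box) and TTTATG (the core bound by CDX factors).
Cyp2f2: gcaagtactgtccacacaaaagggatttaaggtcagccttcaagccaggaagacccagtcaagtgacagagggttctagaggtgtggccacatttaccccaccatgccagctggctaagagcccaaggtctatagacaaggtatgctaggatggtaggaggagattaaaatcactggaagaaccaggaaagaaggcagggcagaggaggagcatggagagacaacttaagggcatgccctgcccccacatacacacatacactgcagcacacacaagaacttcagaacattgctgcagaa
Cyp4b1: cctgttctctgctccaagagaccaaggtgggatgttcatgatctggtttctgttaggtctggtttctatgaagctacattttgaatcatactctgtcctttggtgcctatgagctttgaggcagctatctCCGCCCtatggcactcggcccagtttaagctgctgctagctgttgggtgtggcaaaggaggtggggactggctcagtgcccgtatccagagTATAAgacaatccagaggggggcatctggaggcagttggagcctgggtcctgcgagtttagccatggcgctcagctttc
Cyp2s1: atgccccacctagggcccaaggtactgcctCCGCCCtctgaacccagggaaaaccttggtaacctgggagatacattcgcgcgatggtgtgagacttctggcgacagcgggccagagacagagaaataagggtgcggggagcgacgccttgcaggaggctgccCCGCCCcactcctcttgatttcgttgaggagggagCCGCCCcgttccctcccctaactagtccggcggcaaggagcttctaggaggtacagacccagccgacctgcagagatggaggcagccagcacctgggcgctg

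*Cyp2f2* held none of the 5 motifs and not 1 CpG dinucleotide in this window. *Cyp4b1* held a TATAA at position −29 from the start site, a CCGCCC at −120 and 5 CpG dinucleotides. *Cyp2s1* held 3 copies of CCGCCC, at −220, −87 and −52, and 17 CpG dinucleotides. RefSeq gave a promoter for 71 of the 93 members. Over those, the median number of CpG dinucleotides was 3, against 7 over the promoters of all 27025 genes in the table. TATAA was present in 37 of the 71 (52.1%) and in 25.5% of all promoters, CCAAT in 45.1% and 37.9%, GCGTG in 19.7% and 32.5%, CCGCCC in 22.5% and 35.9%, and TTTATG in 15.5% and 12.1%. Such matches describe the letters of the window, and whether any factor binds there was not measured.

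**Figure D2:**
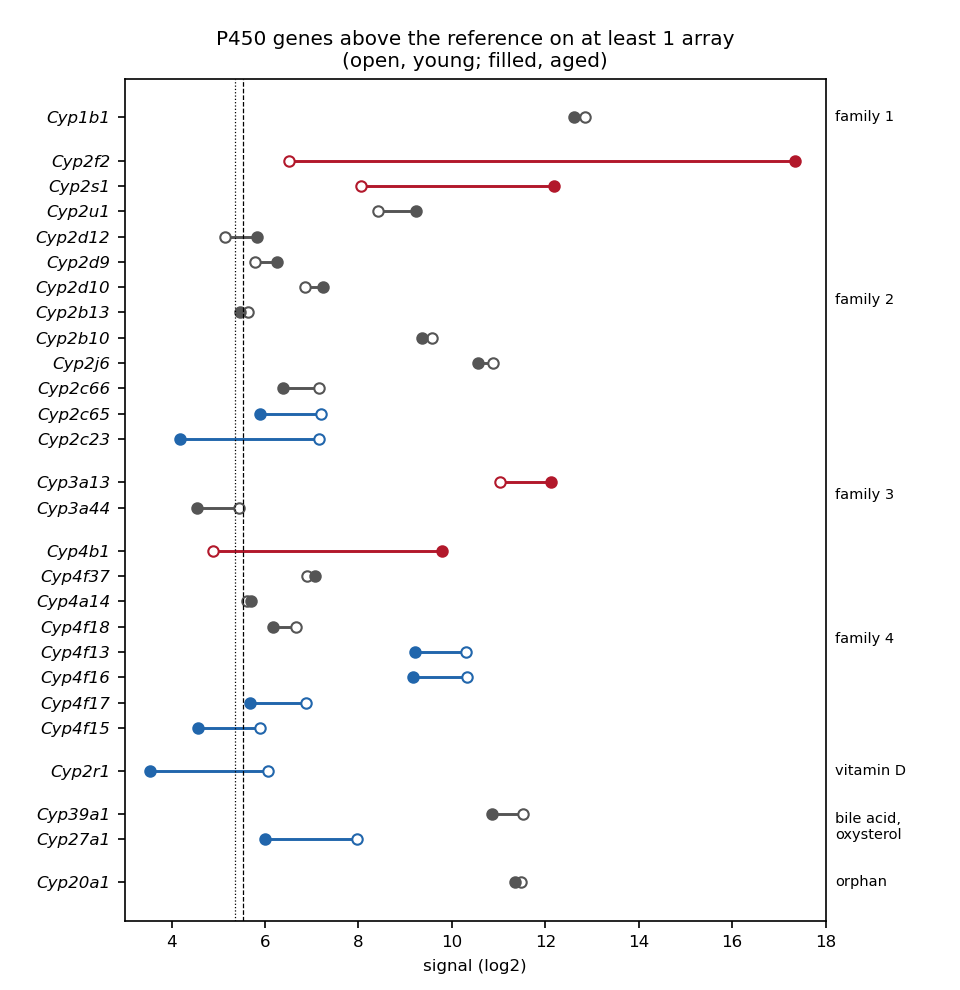
Signals (log2) of the 27 P450 genes above the reference on at least 1 array, as an open circle for the young array and a filled circle for the aged array, grouped by family or role. Red marks genes at least 2-fold higher, blue at least 2-fold lower and gray less than 2-fold apart, the dotted and dashed lines are the references of the young (5.36) and aged (5.54) arrays, and 3 of the genes in red span more than 4 log2 units.

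Other members of family 2 divided by subfamily. In the Cyp2c subfamily, whose enzymes turn arachidonic acid into epoxides or oxidize drugs, 3 of 14 genes were above the reference. All 3 had a negative difference, as did 5759 of the 11557 genes above the reference on the array. *Cyp2c23*, known from the rat as the arachidonic acid epoxygenase of the kidney, was at 7.17 (young) and 4.17 (aged). It was thus above the reference in the young organoids alone, at least 3.09-fold lower in the aged. *Cyp2c65*, a P450 of the mouse gut, was at 7.20 and 5.90, a difference of −1.30 or 2.46-fold. Its neighbor *Cyp2c66*, also known from the gut, was at 7.16 and 6.38, and its difference of −0.78 was short of 2-fold. The promoters of these neighbors were 94.5% identical over 271 aligned bases. How far their probe sets measure each other's RNA was not tested.

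The Cyp2d subfamily, known in human for the drug-oxidizing enzyme of polymorphic activity, had 0 of 7 genes 2-fold apart. *Cyp2d10* was at 6.85 and 7.24, *Cyp2d9* at 5.78 and 6.26, and *Cyp2d12* at 5.15 and 5.83, and the other 4 genes were under the reference on both arrays. Of Cyp2b, the subfamily that phenobarbital induces in liver, *Cyp2b10* was at 9.57 and 9.36 and *Cyp2b13* at 5.64 and 5.47, both close to equal, and the other 3 genes were under the reference. Of Cyp2j, which makes epoxides from arachidonic acid, *Cyp2j6* was at 10.88 and 10.56, and the other 6 genes were under the reference. *Cyp2u1*, a fatty acid hydroxylase, was at 8.41 and 9.23, a difference of 0.82. All 4 Cyp2a genes and the single genes *Cyp2e1*, which oxidizes ethanol, *Cyp2g1*, *Cyp2t4* and *Cyp2w1* were under the reference on both arrays.

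**Figure D3:**
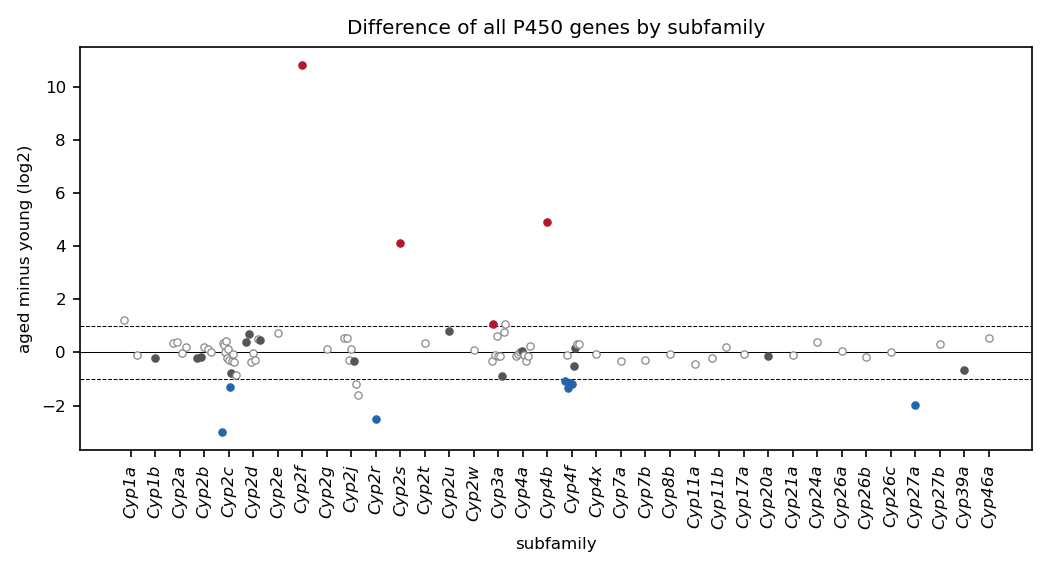
Difference between the arrays (aged minus young, log2) of each of the 93 P450 genes, by subfamily along the horizontal axis. Red and blue points are at least 2-fold higher and lower (dashed lines), dark gray points are less than 2-fold apart and open circles are under the reference on both arrays, and the 4 blue points of Cyp4f lie between −1.33 and −1.09.

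In family 4, the Cyp4f subfamily was the one with the most lower genes, and also the one with the most genes above the reference. Its enzymes hydroxylate the tail of leukotrienes and other fatty acids, a step in their inactivation. Of 9 genes, 6 were above the reference, 5 of them with a negative difference and 4 at least 2-fold lower. The share of lower genes among all genes above the reference was 11.8%, and the difference from it was not tested. *Cyp4f16* was at 10.32 (young) and 9.16 (aged), and *Cyp4f13* at 10.30 and 9.21, so that both stayed far above the reference while differing by −1.16 and −1.09. *Cyp4f17* was at 6.88 and 5.67, a difference of −1.21 or 2.31-fold. *Cyp4f15* was at 5.90 and 4.57, at least 1.29-fold lower, since its aged signal was under the reference. *Cyp4f18*, the leukotriene hydroxylase of mouse neutrophils, was at 6.67 and 6.17, and *Cyp4f37* at 6.90 and 7.06. Of the 8 Cyp4a genes, which hydroxylate fatty acids in liver and kidney, *Cyp4a14* was within 0.26 of the reference on both arrays (5.62 and 5.69), and the other 7 were under it, as was *Cyp4x1*.

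The neighbors *Cyp4f16* and *Cyp4f37* are shown side by side because their promoters were nearly the same while their differences were −1.16 and 0.17. The runs are 300 bases each, from RefSeq on GRCm38.p6, at chr17:32536307-32536606 on the plus strand and chr17:32621069-32621368 on the plus strand. Capitals here mark bases that differ, or have no partner, within the stretch where they align, and the overhanging ends are in lower case.
Cyp4f16: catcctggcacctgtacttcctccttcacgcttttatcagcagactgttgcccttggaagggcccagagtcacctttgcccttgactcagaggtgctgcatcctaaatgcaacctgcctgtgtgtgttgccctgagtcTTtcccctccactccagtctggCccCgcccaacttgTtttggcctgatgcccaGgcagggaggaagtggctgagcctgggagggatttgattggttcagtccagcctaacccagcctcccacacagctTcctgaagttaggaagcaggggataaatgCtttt
Cyp4f37: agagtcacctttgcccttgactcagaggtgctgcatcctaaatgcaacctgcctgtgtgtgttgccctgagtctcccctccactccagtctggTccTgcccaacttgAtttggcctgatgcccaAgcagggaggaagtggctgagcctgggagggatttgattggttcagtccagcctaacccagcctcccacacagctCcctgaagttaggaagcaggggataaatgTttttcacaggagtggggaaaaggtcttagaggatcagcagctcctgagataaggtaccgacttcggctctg

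Of 233 aligned bases, 227 (97.4%) were identical, 6 were mismatched and 2 further bases of *Cyp4f16* had no partner, and the longest shared run was 74 bases. Of the capital bases, 1 lies within a CCGCCC at −88 of *Cyp4f16* that *Cyp4f37* does not hold. Both hold a CCAAT on the minus strand, at −23 and −90 from their annotated start sites, which lie at different points of the shared stretch. *Cyp4f16* also holds a GCGTG on the minus strand at −224, in its unaligned end. Only these windows were compared, and how far the probe sets of *Cyp4f16* and *Cyp4f37* measure each other's RNA was not tested, since probe and transcript sequences were not used here.

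Both *Cyp2s1* and *Cyp2f2* lie in 1 cluster on chromosome 7, toward its opposite ends in the order of the annotation. The cluster holds 13 measured P450 genes, and the 10 between these lie in the Cyp2b, Cyp2a and Cyp2g subfamilies. Of these 10, *Cyp2b10* and *Cyp2b13* were above the reference, with differences of −0.21 and −0.17, and the others were under it on both arrays, so that whether they differed could not be seen. *Cyp2t4*, beyond *Cyp2f2*, was under it on both arrays. The genes outside the cluster on either side, named after their values were seen, were *Axl*, a receptor tyrosine kinase gene next to *Cyp2s1* with a difference of −4.54, and *Egln2*, a prolyl hydroxylase gene that follows *Cyp2t4*, with 1.33.

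*Cyp4b1* stands at the end of a cluster of 10 P450 genes on chromosome 4. Of the other 9, from Cyp4a and Cyp4x, only *Cyp4a14* was above the reference, so the signals of the rest do not show whether they differed. Of the 8 P450 genes of the Cyp4f cluster on chromosome 17, 5 were above the reference and 4 of those were lower, against 11.8% of all genes above it. Between them, 3 zinc finger genes were above the reference with a median difference of −0.05 and 0 of them 2-fold apart. The Cyp2c cluster on chromosome 19 had 13 genes, with *Cyp2c65* and *Cyp2c66* above the reference, and *Cyp2c23* lies outside it on the same chromosome. Over all their genes above the reference, chromosomes 4, 7, 17 and 19 had median differences of −0.05, −0.02, −0.06 and −0.09. Chromosomes 6 and 12 stood apart with medians of 0.68 and 0.60, and 0 of the P450 genes above the reference lie on them.

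**Figure D4:**
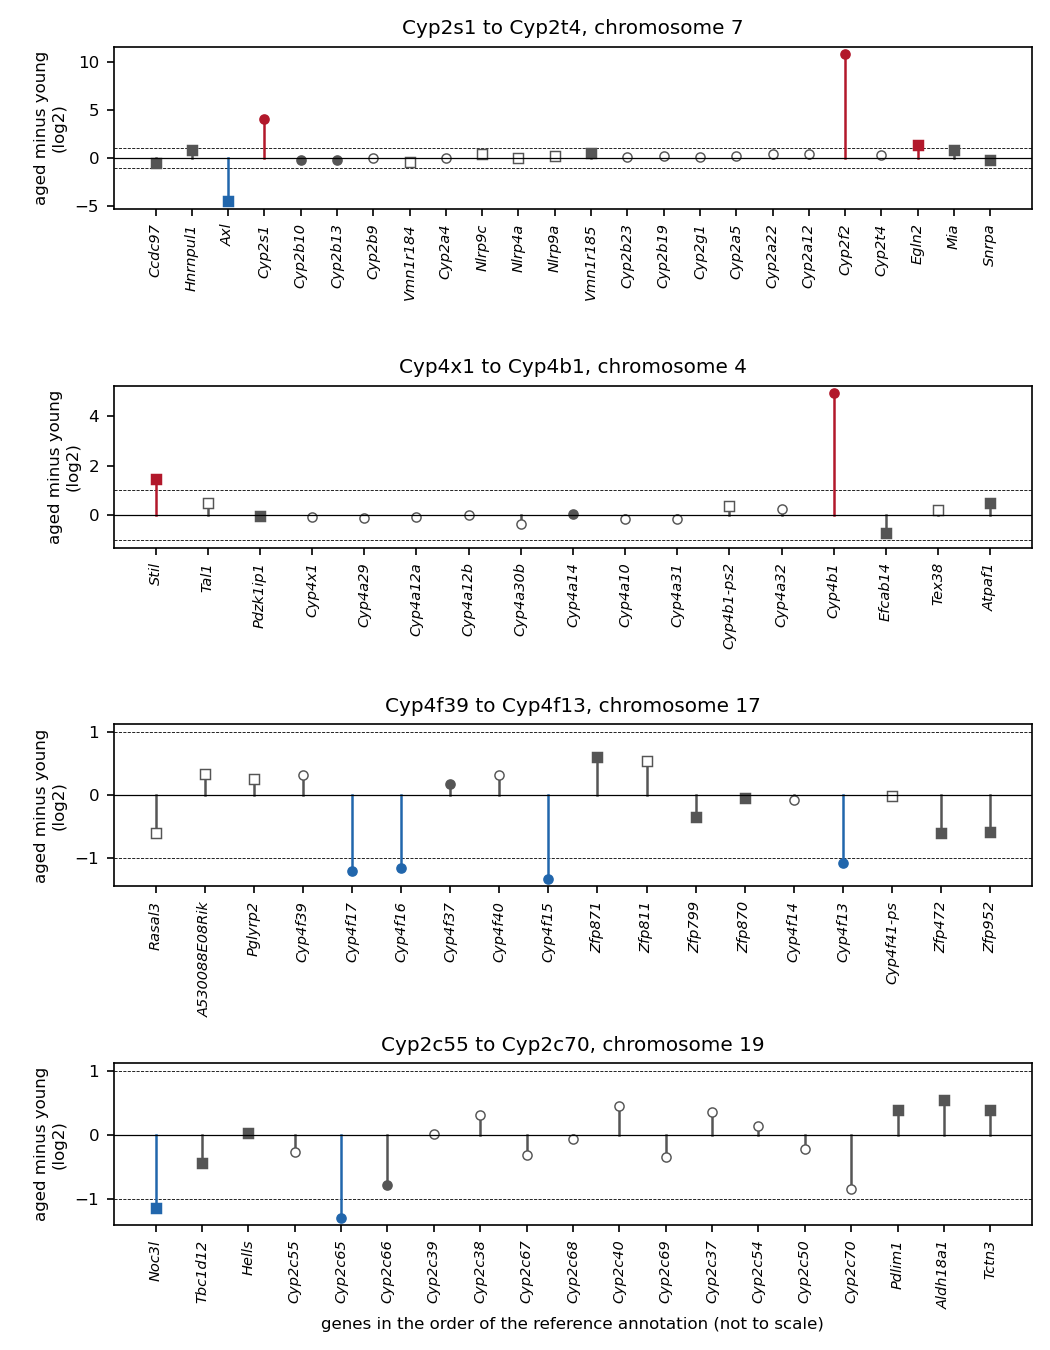
Difference between the arrays (aged minus young, log2) of the genes of 4 P450 clusters and 3 neighbors on each side, in the order of the reference annotation and not to scale along the chromosome, with P450 genes as circles and other genes as squares. Red and blue are at least 2-fold higher and lower (dashed lines), open symbols are under the reference on both arrays, the vertical scale differs between panels, and *Cyp2s1* (4.12) and *Cyp2f2* (10.82) stand at opposite sides of 10 P450 genes, of which 2 were above the reference.

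P450 genes with set roles in the body's own signaling were mostly under the reference, as were 66 of all 93 members. This held for all 5 genes of steroid hormone synthesis, *Cyp11a1*, *Cyp11b1*, *Cyp11b2*, *Cyp17a1* and *Cyp21a1*, and for *Cyp26a1*, *Cyp26b1* and *Cyp26c1*, which break down retinoic acid. Markers of adrenal or gonadal steroid cells were under it as well, 0 of 3 being above it on either array. Of the vitamin D genes, *Cyp2r1*, whose product starts the activation of the vitamin, was at 6.06 (young) and 3.54 (aged), at least 1.44-fold lower. *Cyp27b1*, which completes activation, and *Cyp24a1*, which ends it, were under the reference on both arrays.

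Of the 6 genes of bile acid and oxysterol synthesis, 2 were detected. *Cyp27a1*, the mitochondrial sterol hydroxylase, was at 7.97 and 5.99, a difference of −1.98 or 3.95-fold. *Cyp39a1*, an oxysterol hydroxylase, was at 11.53 and 10.87, less than 2-fold apart. *Cyp7a1*, the rate-limiting enzyme of bile acid synthesis in liver, was under the reference on both arrays, as were *Cyp7b1*, *Cyp8b1* and *Cyp46a1*. *Cyp20a1*, an enzyme of unknown substrate, was at 11.48 and 11.36.

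Family 1 showed an uneven pattern on both arrays. Its genes are the classical targets of the aryl hydrocarbon receptor, a sensor of dioxin and polycyclic hydrocarbons. *Cyp1b1*, which hydroxylates estrogen and activates such hydrocarbons, was at 12.85 and 12.62, a difference of −0.23, whereas *Cyp1a1* (3.27 and 4.50) and *Cyp1a2* (3.22 and 3.12) were under the reference on both. The receptor gene *Ahr* was at 9.06 and 10.26, a difference of 1.21 or 2.31-fold. It lies on chromosome 12, one of those with a raised median. All 5 measured targets of the receptor outside the family were above the reference on at least 1 array, 0 higher and 2 lower, with a median of −0.26. For all genes above the reference the shares were 11.3% higher and 11.8% lower. The quinone reductase gene *Nqo1* was at 8.15 and 4.08, at least 6.10-fold lower, and *Ahrr*, the receptor's repressor, at 6.16 and 5.14, at least 1.53-fold lower. *Tiparp* (6.03 and 6.89), *Aldh3a1* (7.05 and 7.80) and *Aldh1a3* (5.40 and 5.14) were less than 2-fold apart.

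Of 26 measured regulators of P450 genes, *Ahr* and *Ahrr* included, 20 were above the reference, 4 higher and 3 lower, with a median of −0.04 over all 26. For all genes above the reference the shares were 11.3% higher and 11.8% lower. The gut nuclear receptor gene *Hnf4g* was at 7.84 and 10.71, and *Rarb*, a retinoic acid receptor gene, at 11.86 and 13.15. Among the forkhead factors of endoderm, *Foxa1* (13.71 and 15.55) was higher and lies on chromosome 12, and *Foxa2* (8.26 and 6.31) and *Foxa3* (6.67 and 5.01) were lower. *Nr1i2*, the drug-sensing receptor that drives Cyp3a genes, was at 6.89 and 6.62, and *Nr1i3*, which drives Cyp2b genes, was under the reference on both arrays. *Hnf4a*, a driver of liver P450 genes, was at 9.79 and 9.16.

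**Figure D5:**
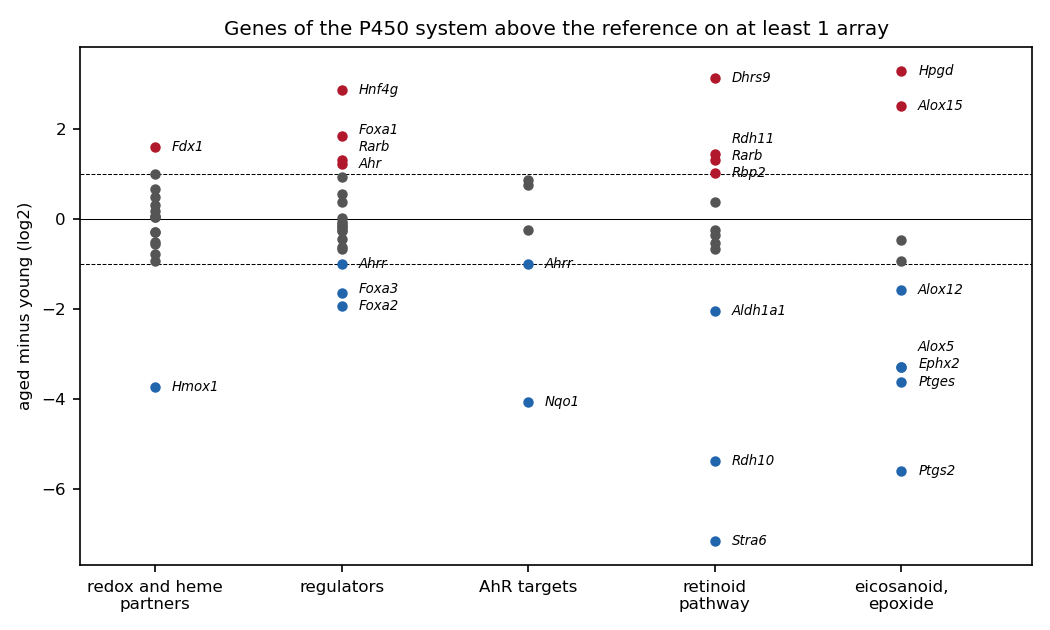
Difference between the arrays (aged minus young, log2) of the genes above the reference on at least 1 array in 5 lists around the P450 enzymes, 1 point per gene. Genes at least 2-fold higher (red) or lower (blue) are named, dashed lines mark 2-fold, genes in more than 1 list are drawn in each, and the points reach from −7.17 for *Stra6* to 3.29 for *Hpgd*.

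Of the partners that supply P450 enzymes with electrons and heme, 16 of 18 were above the reference, 1 was higher and 1 lower. Their differences had both signs, with a median of 0.03 over all 18. Among all genes above the reference, 11.3% were higher and 11.8% lower. *Fdx1*, the mitochondrial ferredoxin gene, was at 10.52 and 12.10, a difference of 1.59. *Hmox1*, which breaks down heme, was at 14.97 and 11.24, 13.3-fold lower. *Cyb5a*, the cytochrome b5 gene, was at 15.24 and 14.45, and *Pgrmc1*, a heme-binding partner, at 15.15 and 14.22, both less than 2-fold apart. The gene of the P450 reductase itself, *Por*, and the ferredoxin reductase gene *Fdxr* were not analysed here.

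The pathways that feed and drain these enzymes included some of the larger differences. In the retinoid pathway, 12 of 15 measured genes were above the reference, 4 higher and 3 lower, with a median of −0.25 over all 15 and −0.31 over the 12. Among all genes above the reference, 11.3% were higher and 11.8% lower. *Stra6*, the retinol uptake receptor gene, was at 13.39 and 6.22, 144-fold lower, and *Rdh10*, a retinol dehydrogenase gene, at 14.24 and 8.85, 41.8-fold lower. *Aldh1a1*, which completes retinoic acid synthesis, was at 16.56 and 14.51. *Dhrs9* (3.09 and 6.23, at least 1.82-fold) and *Rdh11* (11.65 and 13.09), both dehydrogenase genes of the pathway, were higher. *Rdh11* lies on chromosome 12, one of those with a raised median. The list had no single direction.

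In the eicosanoid and epoxide pathway, which shares arachidonic acid with Cyp2c, Cyp2j and Cyp4f enzymes, 9 of 13 genes were above the reference, 2 higher and 5 lower, with a median of −0.95 over all 13 and −1.58 over the 9. Among all genes above the reference, 11.3% were higher and 11.8% lower. *Ptgs2*, the inducible cyclooxygenase gene, was at 8.77 and 3.17, at least 9.39-fold lower, and *Ptges*, a prostaglandin E synthase gene, at 9.54 and 5.92, 12.3-fold lower. *Ephx2*, whose product hydrolyzes the epoxides that P450 enzymes make, was at 10.59 and 7.29, 9.85-fold lower. The lipoxygenase gene *Alox5* was at 7.01 and 3.71, at least 2.77-fold lower. The genes that were higher were *Hpgd*, which inactivates prostaglandins, at 12.81 and 16.10, and the lipoxygenase gene *Alox15*, at 4.91 and 7.41.

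Other gene families act beside P450 enzymes on drugs. For comparison with their counts, 11.3% of all genes above the reference were higher and 11.8% lower. Of 22 glutathione transferase genes, 20 were above the reference, 3 were higher and 9 lower, and the median over all 22 was −0.77. *Gstm6* (11.47 and 7.08) and *Gstm4* (10.99 and 7.99) were 21.0-fold and 8.03-fold lower, and *Gstp3* (6.50 and 9.95) was 10.9-fold higher. The other higher ones lie on chromosomes 6 and 12, those with raised medians. Of 11 UDP-glucuronosyltransferase genes 6 were above the reference, 1 higher and 2 lower. *Ugt2b35* was at 12.42 and 10.02 and *Ugt2b34* at 16.63 and 15.26. Of 21 sulfotransferase genes 7 were above it, with 2 higher and 2 lower, among them *Sult1d1* at 9.25 and 5.45, at least 13.1-fold lower. Of 17 carboxylesterase genes 10 were above it, 1 higher and 3 lower, and of 6 flavin monooxygenase genes 2 were above it and 0 were 2-fold apart.

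The 66 P450 genes under the reference on both arrays had signals between 2.80 and 5.21 (young) and between 2.94 and 5.18 (aged), and differences between −1.61 and 1.23. No fold is given for them, since the receptor genes spread over the same range. For 4 members their excess over the reference was smaller than the receptor genes' SD on each array where they passed it, *Cyp2b13*, *Cyp2d12*, *Cyp3a44* and *Cyp4a14*. *Cyp3a41a* (3.47 and 3.34) and *Cyp3a41b* (3.41 and 3.28), near copies of each other, had the same difference of −0.13, and how far probe sets of such copies measure each other's RNA was not tested.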

How the data were processed

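Total RNA of gastric organoids was labeled with biotin and hybridized to Clariom S mouse arrays, 1 per group. What the authors deposited is 1 log2 signal for each probe set of each array, made with RMA, named with Affymetrix Power Tools in the submitters' processing notes without versions. The base of the logarithm and the genome build were not given in the sources used here, and base 2, the usual output of RMA, was assumed for every fold. Of 22206 probe sets, 19572 with a single symbol were kept and 2634 left out, and averaging over the probe sets of 55 genes that had several left 19505 genes. Medians were 5.96 and 5.92, and the arrays' sorted values lay 0.0235 apart on average, so no further normalization was applied. On the young array 11109 genes (57.0%) were above the reference, and on the aged array 10721 (55.0%).

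The members, gene lists, role groups and motifs were chosen with earlier results of these data known. Named were P450 genes above the reference, with the role of those 2-fold apart and of the 10 brightest, and up to 6 genes of each other list with the largest differences, beside a few set regulators and partners. Microarray groups came from the labels, young against aged. With a single array in each group, no test, p-value, SD between samples or leave-one-out check could be made, and precision is known only from the receptor genes. Scaling, reference percentile, probe set summary, symbols, chromosome medians and fold threshold were varied. The steps were tested on simulated arrays with changes planted in bright genes alone, so the recovery of changes in dim genes was not tested. Gene order, names and promoters came from RefSeq on GRCm38.p6, and clusters were runs of at least 4 P450 genes no more than 10 genes apart. Python 3.11.15, numpy 2.4.6, pandas 2.3.3, Biopython 1.88 and matplotlib 3.10.9 were used.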

Additional observations from a re-analysis of the deposited data

How the results depend on the processing

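The count of P450 genes at least 2-fold higher was 4 under both other scalings, both other references, the floor at the reference, the brightest probe set, the platform's symbols and the subtraction of chromosome medians. It was 6 at 1.5-fold and 3 at 3-fold. The count of lower genes was 8, and 3 at 3-fold, 11 at 1.5-fold, 9 with the reference at the 90th percentile, and 6 with the 99th percentile or with values under the reference set to it. Under the alternatives on scaling, reference, probe sets, symbols and chromosome medians, the median difference of −0.06 ranged from −0.09 (quantile normalization) to 0.18 when values under the reference were set to it, since the references of the arrays differ by that much. Added after seeing the data, counting the pseudogene *Cyp2d13* as a member left 4 and 8 with a median of −0.06, and the median over the P450 genes above the reference alone was −0.23. Of 136 values of 17 named genes under these alternatives, 133 moved by less than the receptor genes' SD and 0 changed sign. The other 3 moved when values under the reference were set to it, to −0.36 for *Cyp4f15*, −0.52 for *Cyp2r1* and −1.63 for *Cyp2c23*, as a floor on the aged array must do. Several of these settings could not move a difference, so their unchanged values are no sign of stability. The reference percentile does not enter a difference, each member has 1 probe set, and the platform's symbols were the same as those used. The symbol setting therefore repeats the main counts and median too. Leaving out genes with near-identical proteins was not run, since protein sequences were not used here. No paired analysis was possible because each group has 1 array. Signals near the reference limit what can be said of most of the family.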

Other observations

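P450 genes outside the rule gave these values. *Cyp51*, the sterol demethylase of cholesterol synthesis, was at 14.08 (young) and 14.38 (aged), less than 2-fold apart. *Ptgis* and *Tbxas1*, the prostacyclin and thromboxane synthases, which belong to the P450 superfamily under other names, were under the reference on both arrays, as was *Cyp2ab1*. Of 4 P450 pseudogenes on the array, *Cyp2d13* on chromosome 15 was above the reference, at 9.23 and 9.56, and the other 3 were under it on both. *Cyp2d13* thus gave a signal in both cultures while 4 of the 7 Cyp2d genes in its cluster did not pass the reference, and how far its probe set measures RNA of the other Cyp2d genes was not tested.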
